A study of Mus musculus with 8 samples.

Results

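Aminoacyl-tRNA synthetases are the enzymes that join each amino acid to its tRNA, and 40 genes of this machinery were described in splenic CD8+ T cells: 20 synthetase genes of the cytosol, 16 of the mitochondrion, the 3 scaffold proteins Aimp1, Aimp2 and Eef1e1, and Xpot, the exportin that carries tRNA out of the nucleus. The genes were chosen by name and function, with earlier results of these data known. Each was found under its symbol among the 55291 genes of the deposited count table. Members were compared between 4 libraries titled ATF4 overexpression (ATF4OE, genotype label ATF4 Tg/Tg) and 4 libraries with the genotype label WT. ATF4 belongs to the bZIP transcription factors and acts in the integrated stress response, and the label of ATF4OE names a transgene for it.

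All 8 libraries came from naïve mice, that is mice given no antigen or tumor, and from spleen cells enriched for CD8+ T cells with magnetic particles. The design text names the 2 kinds of mice as ATF4Tg/Tg and E8IcreATF4Tg/Tg, which differs from the sample labels, so WT is used here only as the labels give it. E8I-Cre is known as a Cre driver active in mature CD8+ T cells. No ages were given, and the labels do not say that the libraries of a group came from separate mice. P-values therefore measure the spread between these libraries, which may in part be technical.

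In animals most amino acids have 2 synthetase genes, 1 for the cytosol and 1 for the mitochondrion, both transcribed in the nucleus. A few genes depart from this plan: Gars and Kars serve both compartments, Eprs joins the glutamate and proline enzymes in a single protein, and Farsa with Farsb form the subunits of a single enzyme. Several cytosolic enzymes are held together with Aimp1, Aimp2 and Eef1e1 in the multisynthetase complex. Naïve CD8+ T cells make little protein until antigen activates them. In other cell types ATF4 is known to act on several cytosolic synthetase genes through C/EBP-ATF response elements (CARE), short sites bound by ATF4 together with a C/EBP partner.

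The core letters of such an element, TGATGNAA with N for any base, were searched for on both strands of the promoters of the members, 250 bases before to 50 after the start of transcription (RefSeq, build GRCm38.p6). They occurred in 5 members, all of them cytosolic synthetase genes that were higher in ATF4OE. The stretches are shown because they are the only matches among the members with a promoter entry. Each is written 5′ to 3′ in the direction of its gene, with the match in capitals. A match read from the other strand appears as TTNCATCA.
Aars, 112 bases before the start (chr8:111033710-111033757, plus strand): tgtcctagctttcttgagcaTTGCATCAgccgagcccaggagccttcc
Aars, 10 bases after the start (chr8:111033840-111033869, plus strand): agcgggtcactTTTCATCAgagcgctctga
Gars, 30 bases before the start (chr6:55037951-55037998, plus strand): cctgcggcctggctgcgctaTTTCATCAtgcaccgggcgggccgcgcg
Iars, 8 bases after the start (chr13:49682126-49682155, plus strand): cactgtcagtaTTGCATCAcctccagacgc
Tars, 15 bases before the start (chr15:11399659-11399693, minus strand): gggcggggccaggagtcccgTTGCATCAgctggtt
Yars, 4 bases after the start (chr4:129189895-129189924, plus strand): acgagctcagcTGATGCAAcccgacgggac

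The libraries held 93478686 to 125974143 estimated counts, and the members had from 778 counts (Nars2) to 64651 counts (Lars2) in a library, so counting error was small for all 40. Levels are given in CPM, counts over the scaled library size times 1e6. Asns, asparagine synthetase and a well known ATF4 target, was at 0.206 to 0.452 CPM in WT, against 147 to 182 CPM in ATF4OE. Atf4 itself was at 231 ± 76.4 CPM in the WT libraries and 328 ± 125 CPM in ATF4OE (SD, n = 4), a log2 fold change of 0.51 that did not pass the test (edgeR quasi-likelihood, adjusted p = 0.37). With the replicate number as a block it was 0.48 (adjusted p = 2.2e-04). The 7 CD8 T cell markers were abundant in all libraries, with a summed level of 5670 to 5956 CPM in WT, against 4592 to 4667 CPM in ATF4OE, and 5 of the 7 were lower. Marker genes of other cells were higher in ATF4OE: 5 of 7 for B cells (summed level 30.5 to 57.0 CPM in WT, 99.9 to 251 CPM in ATF4OE), 5 of 8 myeloid (18.2 to 77.4, then 124 to 293 CPM), 6 of 8 erythroid (79.3 to 114, then 135 to 353 CPM), 3 of 5 platelet (3.54 to 4.44, then 8.43 to 15.8 CPM), 2 of 5 NK cell (95.2 to 164, then 162 to 263 CPM) and 3 of 4 CD4 T cell (7.37 to 14.6, then 33.4 to 47.6 CPM). Of 7 proliferation genes 5 were higher, with a summed level of 151 to 200 CPM in the WT libraries and 309 to 721 CPM in ATF4OE. Marker and proliferation genes were counted at an edgeR adjusted p below 0.05. Over all genes tested, 9.16% were higher and 4.89% lower at that threshold. The summed ranges of the NK cell markers overlapped between the groups. In WT most of that sum was Eomes, at 7344 to 14954 counts in WT and 10833 to 12700 in ATF4OE. In 4 of the 5 NK cell genes all ATF4OE libraries were above all WT libraries, as in 13.3% of genes tested. The erythroid sum in WT was mostly Tfrc, at 8951 to 9928 counts in WT and 7708 to 11219 in ATF4OE. The median log2 fold change of the 8 erythroid genes was 3.16, and 7 of them were above 0. Replicates 1 and 2 of both groups stood apart from replicates 3 and 4. In addition WT replicates 1 and 4 and ATF4OE replicates 1 and 2 had few genes at 2 to 5 counts (528 to 752, against 1248 to 1568 in the other libraries).

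The cytosolic synthetases fell into 2 sets by the test. Of the 20 genes, 13 rose in ATF4OE, 0 fell and 7 did not pass the test (edgeR quasi-likelihood, Benjamini-Hochberg adjusted p below 0.05). Over all 16630 genes tested, 9.16% rose and 4.89% fell. In each of the 13 all ATF4OE libraries were above all WT libraries, as in 13.3% of genes tested. No cytosolic gene was called lower by DESeq2 or limma-voom either, and 1 was lower at an unadjusted p below 0.05. The median log2 fold change was 1.10 over the 20 genes and -0.02 over all genes tested. Their summed level was 1732 to 1901 CPM in WT, against 3617 to 3966 CPM in ATF4OE. In bulk RNA, fewer cells of a type and less RNA per cell cannot be told apart.

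The rise was largest for Cars, which charges tRNA with cysteine (chromosome 7, 143557230 to 143600090, minus strand, GRCm38). Its level was 32.4, 30.4, 27.5 and 27.2 CPM in WT replicates 1 to 4, and 252, 237, 207 and 216 CPM in ATF4OE. Every ATF4OE library was far above every WT library, and the log2 fold change was 2.96 ± 0.09 (SE, adjusted p = 5.9e-08).

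Aars, the alanine enzyme (chromosome 8, 111033144 to 111057664, plus strand), was at 52.8, 65.2, 61.6 and 71.9 CPM in the WT libraries and 234, 260, 273 and 297 CPM in ATF4OE. The groups did not overlap, with a log2 fold change of 2.08 ± 0.11 (adjusted p = 2.6e-06). The 3′ end of Aars shares 1326 exon bases on the same strand with Exosc6, a subunit of the RNA exosome (chromosome 8, 111056339 to 111057664). In GENCODE M21 these bases are the whole of Exosc6, so no read is particular to Exosc6 by its position. Exosc6, chosen after its values were seen, had 419 to 657 counts in the WT libraries and 0 in each of the 4 ATF4OE libraries, at least 865-fold lower against a floor of 3 counts over the group. Because the authors' counting divides shared reads between the genes by a model, the 2 were also summed: 68.4 ± 7.40 CPM in WT, against 266 ± 26.3 CPM in ATF4OE (SD, n = 4), a log2 difference of 1.96. The rise of Aars was thus nearly as large with the overlapping gene included. How far the model's division of shared reads made the 0 counts of Exosc6 was not tested.

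Yars, the tyrosine enzyme (chromosome 4, 129189760 to 129219607, plus strand), was at 33.7, 31.9, 41.4 and 40.7 CPM in the WT libraries and 153, 132, 156 and 153 CPM in ATF4OE. All ATF4OE libraries lay above all WT libraries, and the log2 fold change was 2.01 ± 0.11 (adjusted p = 2.6e-06). Mars1, the methionine enzyme that also charges the initiator tRNA (chromosome 10, 127296221 to 127311786, minus strand), was at 50.5, 52.5, 63.2 and 63.4 CPM in WT, against 207, 196, 227 and 213 CPM in ATF4OE. It likewise did not overlap, with a log2 fold change of 1.88 ± 0.10 (adjusted p = 2.5e-06). Mars1 shares 68 exon bases with Ddit3 on the opposite strand. Ddit3, the stress transcription factor also called CHOP, was itself higher, from 20.4 ± 3.75 to 50.8 ± 9.93 CPM. The strand setting of the counting is not given in the sources used here, so reads in that overlap could not be assigned to either gene.

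Nars, the asparagine enzyme (chromosome 18), and Sars, the serine enzyme (chromosome 3, 108424865 to 108445209, minus strand), rose by similar amounts. For Nars the WT values were 117, 130, 127 and 135 CPM and the ATF4OE values 371, 363, 373 and 395 CPM, with a log2 fold change of 1.56 ± 0.07 (adjusted p = 9.98e-07). For Sars they were 124, 137, 147 and 161 CPM, then 379, 388, 393 and 402 CPM, with a log2 fold change of 1.46 ± 0.08 (adjusted p = 4.85e-06). In both genes the ATF4OE libraries were within a narrow band well above WT.

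Iars, for isoleucine, was at 83.4 to 103 CPM in the WT libraries and 264 to 308 CPM in ATF4OE (log2 fold change 1.61 ± 0.09). Gars, for glycine in both compartments, was at 88.5 to 98.6 and 221 to 270 CPM (1.42 ± 0.08). Tars, for threonine, was at 73.2 to 82.3 and 169 to 188 CPM (1.21 ± 0.07). None of these ranges overlapped. Lars, for leucine, was at 73.1 to 79.1 and 163 to 184 CPM (1.19 ± 0.07), and Wars, for tryptophan, at 46.8 to 59.7 and 91.6 to 124 CPM (1.01 ± 0.12). The smallest rises that passed the test were those of Eprs, for glutamate and proline, at 142 to 163 and 252 to 306 CPM (0.89 ± 0.08), and Vars, for valine, at 177 to 205 and 276 to 298 CPM (0.60 ± 0.07). Adjusted p-values of these 7 genes ran from 3.5e-06 for Lars to 5.2e-04 for Wars. The 13 genes together went from 1188 ± 57.7 to 3176 ± 119 CPM (SD, n = 4), 2.67 times the WT sum, and folds of single genes ran from 1.51 to 7.76.

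**Figure D1:**
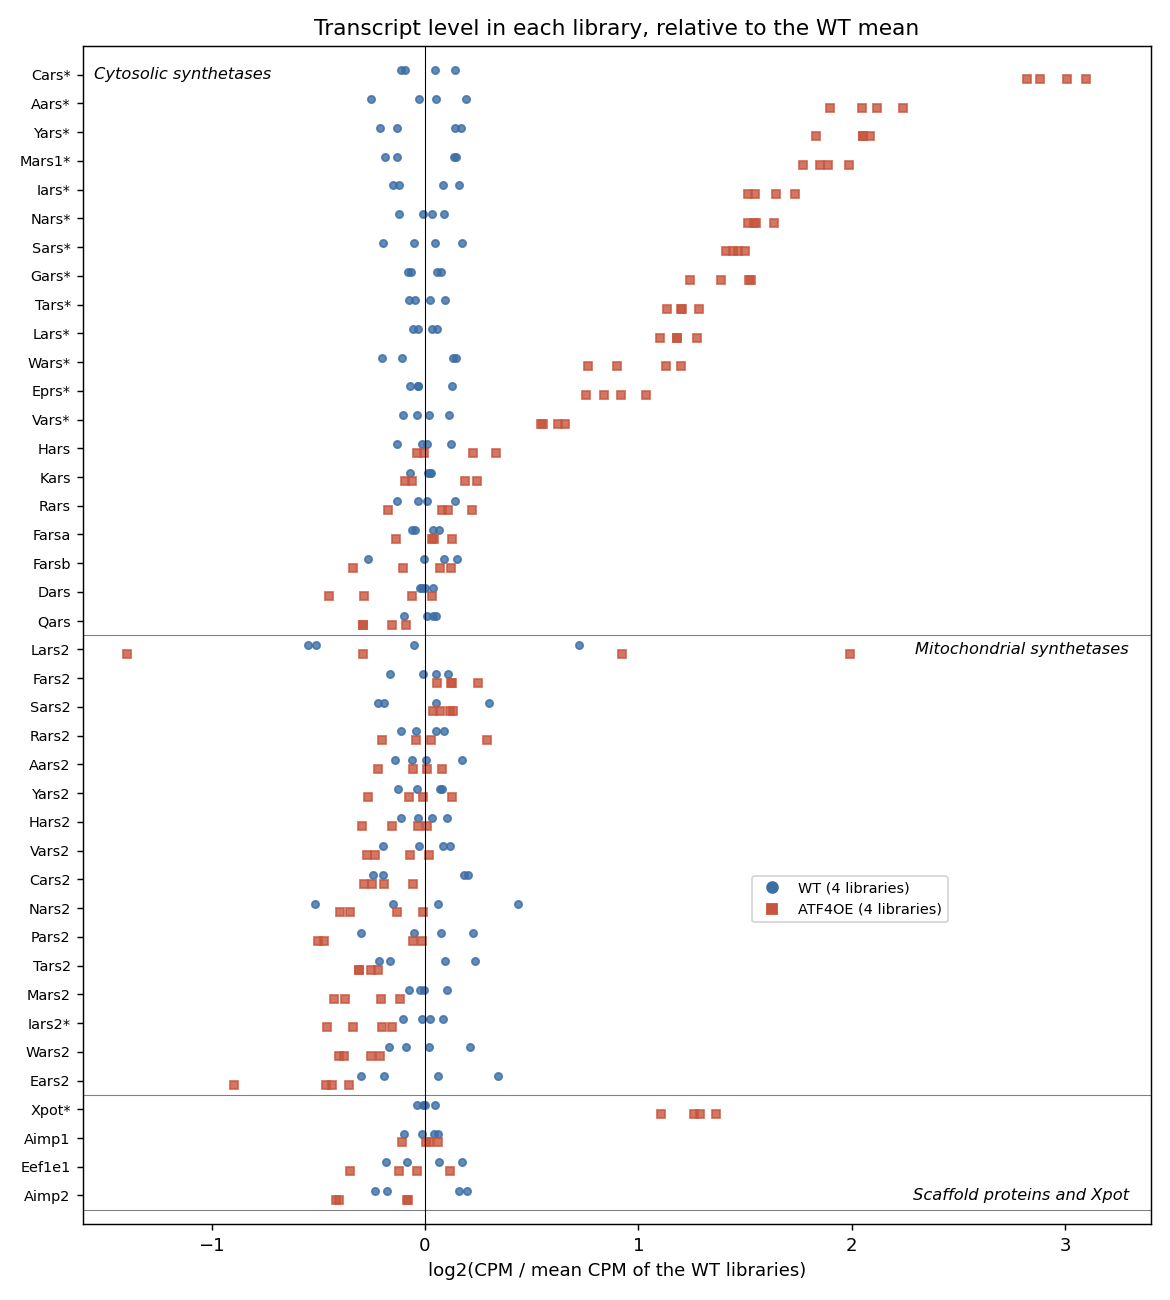
Level of each of the 40 genes in each library as log2 of its CPM over the mean CPM of the 4 WT libraries (circles WT, squares ATF4OE, an asterisk marks an edgeR adjusted p below 0.05). The 13 called cytosolic genes and Xpot separate to the right, with Cars farthest, while the other genes spread around 0 and Lars2 spreads widely in both groups.

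The other 7 cytosolic genes did not pass the test. They charge aspartate (Dars), phenylalanine (Farsa and Farsb), histidine (Hars), lysine (Kars), glutamine (Qars) and arginine (Rars). Their log2 fold changes ran from -0.20 to 0.14, with adjusted p from 0.0975 to 0.909, and the groups overlapped in each. Summed, they were at 628 ± 19.5 CPM in WT, against 610 ± 59.8 CPM in ATF4OE (SD, n = 4). Both subunits of the phenylalanine enzyme were among them: Farsa was at 65.1 to 71.1 CPM in the WT libraries and 61.9 to 74.2 CPM in ATF4OE, and Farsb at 47.8 to 63.7 and 45.5 to 62.5 CPM. Kars was at 108 to 115 and 106 to 134 CPM. Rars was at 68.1 to 82.0 and 66.1 to 86.7 CPM, and Hars at 51.3 to 61.1 and 54.6 to 70.7 CPM. Dars was at 106 to 111 CPM in WT and at 88.6, 79.1, 110 and 103 CPM in ATF4OE, so that ATF4OE replicates 1, 2 and 4 lay below every WT library. Qars had the lowest adjusted p of the 7, with 155, 141, 156 and 152 CPM in the WT libraries and 123, 123, 142 and 136 CPM in ATF4OE (log2 fold change -0.20 ± 0.07). With the replicate number as a block Qars was called lower (adjusted p = 0.011), where 13.5% of all genes tested were lower and 13.7% higher.

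Members of the multisynthetase complex were found in both sets. Of its 8 synthetase genes, Eprs, Iars, Lars and Mars1 rose, and Dars, Kars, Qars and Rars did not pass. Among the 12 cytosolic synthetases outside it, 9 rose. By the 2 structural classes of the catalytic domain, 7 of 9 class I genes and 5 of 10 class II genes rose, leaving out Eprs, which holds both. The 2 genes that serve both compartments differed in call, with Gars at 1.42 and Kars at 0.08 on the log2 scale. These groupings were chosen with the results known, and no test was made of these shares.

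The 13 rises were present in both library sets. In replicates 1 and 2 alone the log2 fold change was 2.99 for Cars, 2.10 for Aars and 0.55 for Vars, and in replicates 3 and 4 alone it was 2.95, 2.10 and 0.68. None of the 40 members was called for a difference in effect between the sets (lowest adjusted p = 0.246, for Dars), where 0.998% of genes tested were. The marker genes of other cells and the proliferation genes moved with the groups too, as given above, and their part in these rises was not tested. The summed level of proliferation genes went from 158 and 151 to 320 and 309 CPM in replicates 1 and 2, and from 198 and 200 to 688 and 721 CPM in replicates 3 and 4. Each of the 13 genes was also called without the 4 libraries that had few genes at 2 to 5 counts, where the highest adjusted p was 0.033 for Vars.

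No mitochondrial synthetase was called higher. Of the 16 genes, 0 passed in that direction (0 also at an unadjusted p below 0.05, and by DESeq2 and limma-voom), 1 fell and 15 did not pass the test. Over all genes tested 9.16% rose and 4.89% fell. The median log2 fold change was -0.16. By sign 12 of the 16 were below 0, against 52.9% of all genes tested, and with library size alone 9 of the 16 were, against 34.6%. Iars2, the mitochondrial isoleucine enzyme (chromosome 1, 185284726 to 185329396, minus strand), was the gene that fell. It was at 92.2, 86.5, 98.5 and 94.5 CPM in WT, against 73.5, 67.6, 80.9 and 83.4 CPM in ATF4OE, without overlap. Its log2 fold change was -0.28 ± 0.08 (adjusted p = 0.047). The call was lost in 7 of the 8 fits that left out 1 library (adjusted p 0.055 to 0.11, held only without ATF4OE replicate 4) and without the 4 libraries with few low counts (adjusted p = 0.36). It was also lost with upper-quartile scaling (0.067), with library size alone (0.37), with no low-count filter (0.069) and within replicates 1 and 2 (0.070), each an adjusted p. Iars2 shares 2034 exon bases with Rab3gap2 on the opposite strand, which was at 48.1 ± 4.73 and 53.4 ± 2.87 CPM.

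Another 4 mitochondrial genes lay lower in ATF4OE without overlap but did not pass the test, so that groups did not overlap in 5 of 16, against 8.68% of all genes tested in that direction. Ears2, the glutamate enzyme, was at 28, 23, 19.3 and 18 CPM in the WT libraries and 17.2, 16, 16.3 and 11.9 CPM in ATF4OE (log2 fold change -0.52 ± 0.17, adjusted p = 0.066). Mars2, the methionine enzyme, was at 34.5 to 39.1 and 27.1 to 33.6 CPM (adjusted p = 0.073). Tars2, for threonine, was at 67.9 to 92.8 and 63.7 to 67.6 CPM (adjusted p = 0.115), a gap of less than 1 CPM between the closest libraries. Wars2, for tryptophan, was at 16.9 to 22.0 and 14.4 to 16.4 CPM (adjusted p = 0.105). With the replicate number as a block all 5 were called lower, at adjusted p = 0.0025 for Iars2, 0.0047 for Ears2, 0.0094 for Mars2, 0.0235 for Tars2 and 0.0435 for Wars2, and again 0 mitochondrial genes were higher. In that fit 13.5% of all genes tested were lower and 13.7% higher. DESeq2 called 3 lower, Iars2, Ears2 and Mars2, against 1090 of all 16630 genes tested.

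Lars2, the mitochondrial leucine enzyme (chromosome 9, 123366927 to 123462666, plus strand), varied more between libraries than any other member. Its WT values were 214, 88.9, 126 and 91.2 CPM and its ATF4OE values 518, 247, 106 and 49.4 CPM. The highest and the lowest library were both ATF4OE, and the groups overlapped widely. The log2 fold change of 0.82 ± 0.68 was not called (adjusted p = 0.53). It was 1.37 in replicates 1 and 2 but -0.48 in replicates 3 and 4, and neither value passed the test. Leaving out 1 library moved it between 0.046 (without ATF4OE replicate 1) and 1.17 (without WT replicate 1). With Lars2 the 16 genes summed to 633 ± 67.1 CPM in WT, against 672 ± 200 CPM in ATF4OE. Without it the sum of 15 was 503 ± 15.9 and 442 ± 20.9 CPM, 0.879 times the WT sum (SD, n = 4).

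The remaining 10 mitochondrial genes overlapped between the groups. Cars2 was at 32.3 to 44.0 CPM in the WT libraries and 31.4 to 36.9 CPM in ATF4OE, and Aars2 at 19.8 to 24.7 and 18.8 to 23.1 CPM. Yars2 was at 14.1 to 16.2 and 12.7 to 16.7 CPM, and Sars2 at 16.1 to 23.1 and 19.3 to 20.6 CPM. These are partners of cytosolic genes that rose, and so are Nars2, Vars2 and, through Eprs, Pars2, which are given below. The partners of those that did not pass overlapped too: Fars2 was at 12.5 to 15 and 14.5 to 16.6 CPM, Hars2 at 46.8 to 54.4 and 41.3 to 50.9 CPM, and Rars2 at 22.5 to 25.8 and 21.1 to 29.6 CPM. Of the rest, Nars2 was at 7.72 to 14.9 and 8.38 to 11 CPM, Vars2 at 42.5 to 52.7 and 40.4 to 49.3 CPM, and Pars2, the proline enzyme, at 8.51 to 12.3 and 7.41 to 10.4 CPM. The CD8 markers fell and markers of other cells rose in the same libraries, and their part in the levels of the mitochondrial genes was not tested.

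The pairing of a cytosolic gene with its mitochondrial partner for the same amino acid gives a comparison inside each library, in which the library's scaling cancels. For 14 such pairs the ratio of cytosolic to mitochondrial counts was formed. The ratio is not corrected for gene length, so only its change between groups can be read. In 10 pairs the ratio was higher in all 4 ATF4OE libraries than in all 4 WT libraries, and in 0 pairs it was lower in all of them. Each of the 10 gave the smallest p that 70 assignments allow in an exact two-sided permutation test (p = 0.0286, 0.040 adjusted over the 14 pairs). Exchanging labels only between same-numbered libraries leaves 16 assignments and a smallest two-sided exact permutation p of 0.125, so no pair could pass that way. In each of the 10 pairs, and in Hars, all 4 same-numbered differences were above 0. The median difference over the 14 pairs was 1.41 on the log2 scale.

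The pair with the largest change was Cars and Cars2, with 0.745, 0.690, 0.824 and 0.842 counts of Cars per count of Cars2 in WT and 6.82, 7.33, 6.19 and 6.88 in ATF4OE (log2 difference 3.14 ± 0.08, SE). In WT the cytosolic gene thus had fewer counts than its partner in every library, and in ATF4OE several times more. For Mars1 and Mars2 the ratio was 1.41 to 1.75 in WT and 6.73 to 7.36 in ATF4OE (2.16 ± 0.07). For Aars and Aars2 it was 2.52 to 3.63 and 11.8 to 13.0 (2.13 ± 0.12), and for Yars and Yars2 2.10 to 2.89 and 9.34 to 10.5 (2.07 ± 0.12). These 4 pairs each changed by more than 2 on the log2 scale.

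The isoleucine genes Iars and Iars2 had nearly equal counts in WT, with ratios of 0.905, 0.984, 0.997 and 1.09, and ratios of 3.68, 3.90, 3.58 and 3.69 in ATF4OE (1.90 ± 0.06). This pair had the smallest standard error, and both of its genes were called, in opposite directions. The log2 differences of the other pairs that separated were 1.74 ± 0.20 for Nars, 1.47 ± 0.10 for Tars, 1.36 ± 0.16 for Sars, 1.31 ± 0.18 for Wars and 0.73 ± 0.12 for Vars, each over its partner. The 4 pairs that overlapped were Lars (0.78 ± 0.80, exact permutation p = 0.40), Hars (0.25 ± 0.15, p = 0.20), Rars (0.04 ± 0.10, p = 0.83) and Farsa (-0.12 ± 0.09, p = 0.17). Hars and Hars2 share 195 exon bases on opposite strands, 7.97% of the exon bases of Hars. With the strand setting not given, reads in those bases could not be assigned to either gene. For Lars the cytosolic gene rose by 1.19 on the log2 scale, and the ratio to the widely spread Lars2 ran from 0.333 to 3.49 in ATF4OE.

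**Figure D2:**
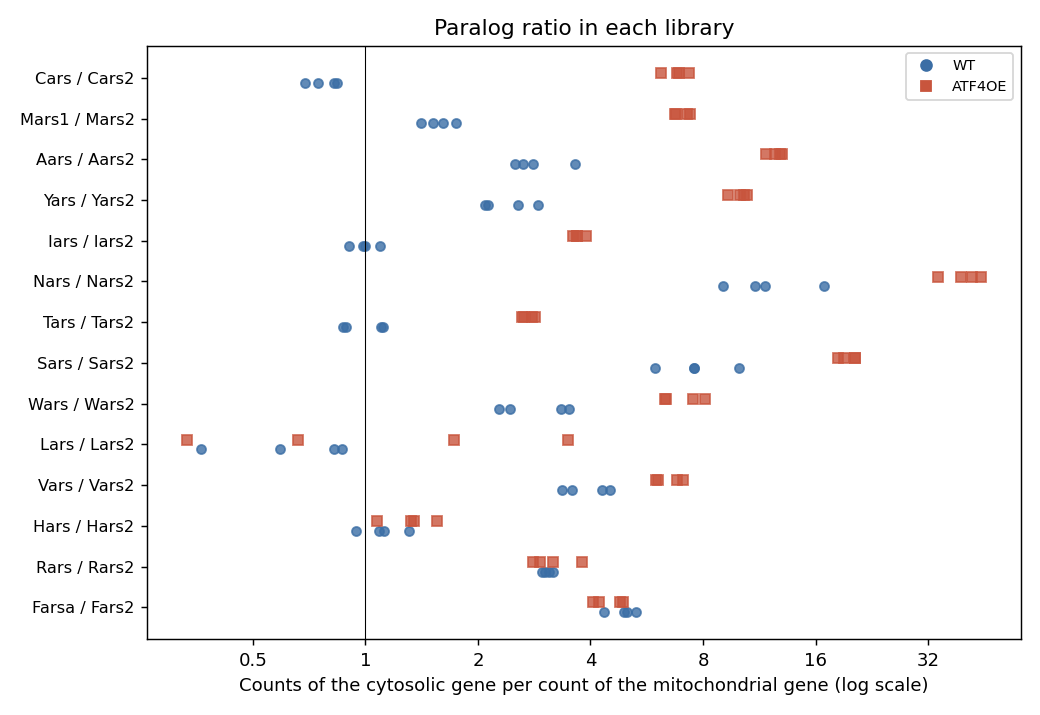
Counts of the cytosolic gene per count of its mitochondrial partner in each library, on a log axis, for 14 pairs (circles WT, squares ATF4OE). In 10 pairs the 4 ATF4OE libraries lie above the 4 WT libraries, and in the Lars, Hars, Rars and Farsa pairs the groups overlap.

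**Figure D3:**
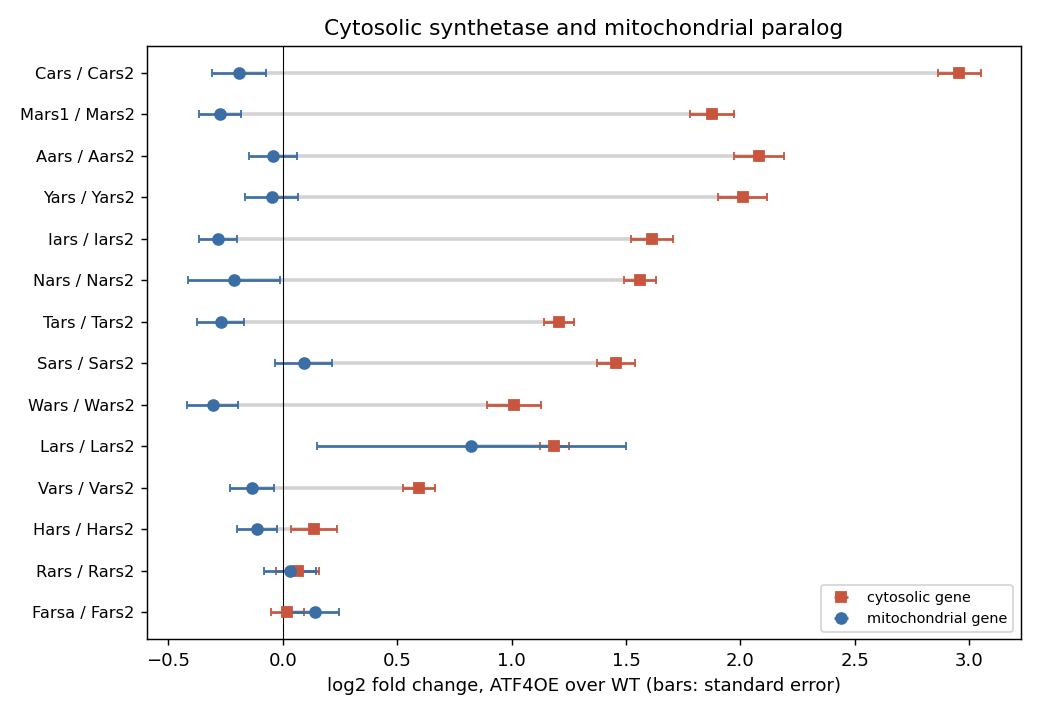
Log2 fold change of ATF4OE over WT for the 2 genes of each pair, with standard errors as bars (squares cytosolic, circles mitochondrial). The distance between the points ranges from near 0 for Rars and Rars2 to about that between 2.96 for Cars and -0.19 for Cars2.

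Of the scaffold and export genes, Xpot passed the test. Xpot (chromosome 10, 121587380 to 121626332, minus strand) was at 55.3, 57.6, 54.3 and 55.7 CPM in WT, against 134, 120, 143 and 136 CPM in ATF4OE. The groups were far apart, with a log2 fold change of 1.26 ± 0.07 (adjusted p = 4.1e-06). It was called higher in each of the 21 alternative fits, as were the 13 cytosolic synthetases. The 3 scaffold proteins of the multisynthetase complex did not pass, and none of the 4 genes was lower at an unadjusted p below 0.05 or by DESeq2 or limma-voom. Aimp1 was at 47.5 to 53.1 CPM in the WT libraries and 47.2 to 53.1 CPM in ATF4OE, and Eef1e1 at 20.1 to 25.8 and 17.9 to 24.8 CPM. Aimp2 was at 22.0 to 29.7 and 19.4 to 24.6 CPM (log2 fold change -0.24 ± 0.13, adjusted p = 0.32). It was called lower with the replicate block (adjusted p = 0.034).

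Levels of different genes can be set side by side only per length, here as CPM per kilobase of exon. In WT the cytosolic genes ran from 4.46 for Cars to 33.8 for Vars with a median of 19.7 CPM per kilobase, and the mitochondrial genes from 1.58 for Nars2 to 11.8 for Hars2 with a median of 5.08. In ATF4OE the medians were 29.4 and 4.67 CPM per kilobase. The lowest cytosolic genes of WT were Cars at 4.46 ± 0.374, Yars at 6.21 ± 0.814 and Aars at 6.77 ± 0.861 CPM per kilobase (SD, n = 4), and of these Yars and Aars lay within each other's spread. The same 3 genes had the largest log2 fold changes of the class, and in ATF4OE they stood at 34.6, 25 and 28.7 CPM per kilobase. They were also the lowest 3 in WT when levels were divided by the longest transcript. Because a fold is a ratio to the WT level, the 2 quantities share that value, and no test was made.

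At the upper end in WT were Vars at 33.8 ± 2.13, Gars at 30.0 ± 1.67, Nars at 29.2 ± 1.78 and Sars at 27.7 ± 3.01 CPM per kilobase, of which Gars, Nars and Sars did not differ beyond their spread. In ATF4OE the highest were Nars at 86.1 ± 3.13, Gars at 80.4 ± 7.30 and Sars at 76.0 ± 1.91. Mars1 at 61.6 ± 3.81, Iars at 53.7 ± 3.76 and Vars at 51.0 ± 1.96 followed. The spread of Gars reached both Nars and Sars, and the spreads of Iars and Vars overlapped. Per kilobase of exon the 7 genes that did not pass the test were in the middle of the WT order, from 15 for Farsa to 25.3 for Kars. By the longest transcript Dars, Qars and Kars, which did not pass, were the highest in WT, and Vars had rank 5. The order and the place of these 7 genes thus depend on the length used.

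**Figure D4:**
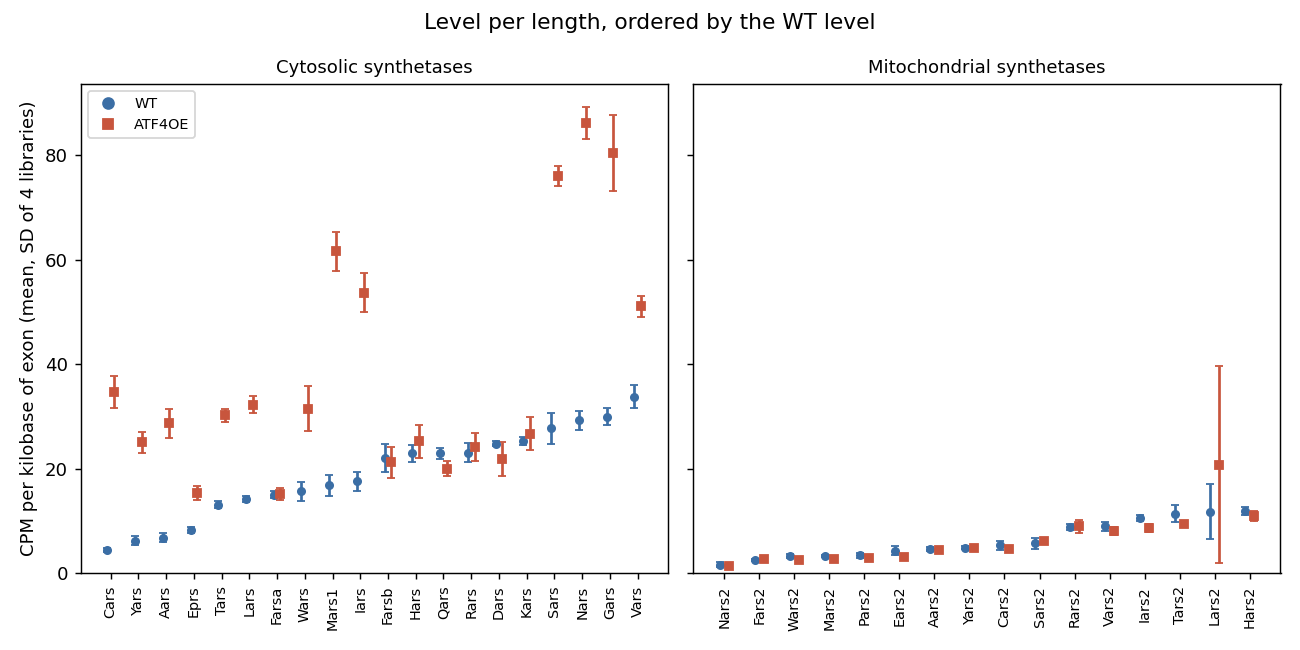
Mean level per kilobase of exon with SD over 4 libraries for cytosolic (left) and mitochondrial (right) synthetases, ordered by the WT level (circles WT, squares ATF4OE). Cars, Yars and Aars are lowest of the cytosolic genes in WT, and Nars, Gars and Sars are highest in ATF4OE, while the means of the mitochondrial genes stay below 21 with a wide spread for Lars2.

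Among the promoters, 31 of the 40 members had a RefSeq entry (none for Cars, Hars, Lars, Nars, Rars, Vars, Wars, Hars2 and Pars2). The core letters occurred in 5 of the 31, which is 16.1%, and in 4.51% of the 27025 genes with a promoter entry. All 5 were among the 8 cytosolic genes with an entry that rose (62.5%), namely Aars, Gars, Iars, Tars and Yars. The share was 5.71% among all called-higher genes with an entry and 2.80% among the 10967 genes tested that had an entry. None of the 5 cytosolic genes that did not pass, the 14 mitochondrial genes or the 4 scaffold and export genes held the letters. With C at the free place the letters occurred in 4 members, Aars, Iars, Tars and Yars, and in 1.03% of all genes with an entry. Eprs, Mars1, Sars and, of the export genes, Xpot rose without a match in this window. A match is a run of letters and not a bound site.

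The other genes of tRNA handling were looked at from lists by role. The amidotransferase, formylation and further synthetase genes, 5 in all with Tarsl2 among them, had 0 genes called in either direction. The same held for the 5 editing genes, the 5 selenocysteine genes and the 3 sensing genes found in the table, among them Eif2ak4, the kinase GCN2 that senses uncharged tRNA (17.5 to 22.9 CPM in WT, 17.9 to 24.1 CPM in ATF4OE). At an unadjusted p below 0.05, 1 selenocysteine gene was lower and none of the other genes of these lists passed. DESeq2 and limma-voom called none of them. Of 21 tested maturation genes 0 rose and 1 fell, and of 26 modification genes 0 rose and 1 fell, against 9.16% and 4.89% of all genes tested, so that the lower calls were near the background. At an unadjusted p below 0.05 these 2 lists held 1 higher gene, of maturation, and 9 lower ones. A gene at an unadjusted edgeR p of 0.048 ranked 4345 among the 16630 tested, so such values were common. DESeq2 called 4 lower and 0 higher in these 2 lists, against 1090 lower and 2129 higher of all 16630 genes tested.

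Mettl1, which methylates tRNA at guanosine, was the modification gene that fell. It was at 34.5, 35.8, 33.0 and 33.0 CPM in WT, against 21.9, 17.8, 26.0 and 21.7 CPM in ATF4OE, without overlap (log2 fold change -0.64 ± 0.11, adjusted p = 0.0043). Elac1, an endonuclease that acts on the 3′ end of tRNA, was at 32.8, 33.8, 22.8 and 30.2 CPM in the WT libraries and 21.1, 21.3, 21.9 and 21.9 CPM in ATF4OE (-0.47 ± 0.12, adjusted p = 0.028). WT replicate 3 lay just above the ATF4OE libraries. With the replicate block the 6 lists together had 1 gene higher and 13 lower, in a fit where 13.7% of all genes tested were higher and 13.5% lower. Without the 4 libraries with few low counts neither gene was called. The median log2 fold change was -0.06 for maturation and -0.13 for modification genes.

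**Figure D5:**
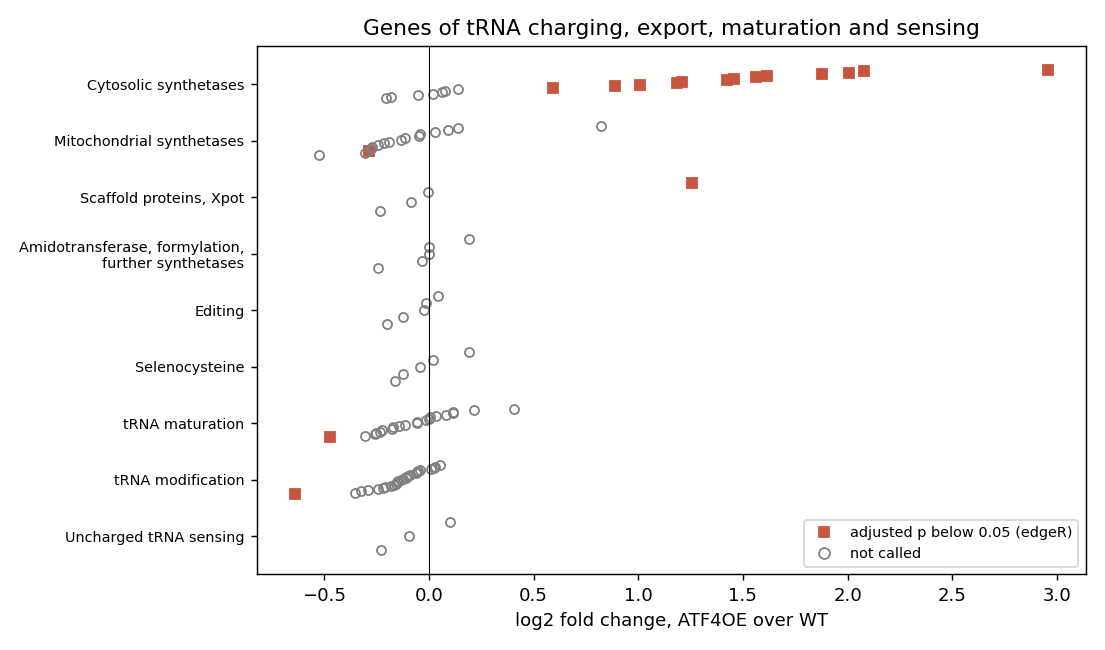
Log2 fold change of ATF4OE over WT for each tested gene of the cytosolic and mitochondrial synthetases, the scaffold and export genes and 6 further lists of tRNA genes (filled squares, edgeR adjusted p below 0.05; open circles, not called). The genes above 0.5 are the 13 called cytosolic synthetases, Xpot and Lars2, and Lars2 was not called.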

How the data were processed

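RNA was sequenced from 8 libraries of splenic CD8+ T cells, 4 per group, as polyadenylated RNA per the labels' protocols. The authors deposited estimated counts per gene, made with Salmon on GRCm38 per the submitters' processing notes. Salmon divides read pairs shared by overlapping or similar genes by a model, so such reads can move between genes. The sources used here do not name the annotation release, the strand setting or filters. Each column was matched to 1 sample by its name, with 0 columns unused.

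The members and lists were chosen with earlier results of these data known. Estimated counts were rounded to whole numbers and fitted over all genes by quasi-likelihood in edgeR 4.0.16 (R 4.3.3, TMM, filterByExpr, robust dispersion, group as the only term), with Benjamini-Hochberg adjustment over the 16630 genes tested and calls at an adjusted p below 0.05. All 40 members passed the filter. CPM are counts over the TMM-scaled library size, and standard errors come from the F statistic. DESeq2 1.42.0, limma-voom (limma 3.58.1), other scalings and filters, library sets and leaving out libraries were the alternatives, and the fit without the 4 libraries with the fewest genes at 2 to 5 counts was chosen after seeing the data. Pair ratios had a prior count of 0.5. The tests were tested on simulated data.

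Coordinates and lengths are from GENCODE M21 on GRCm38, where Mars1 is named Mars. Promoters are from RefSeq. Fully given were, per class, the called members with the 5 smallest p-values, any called lower, the 3 of highest mean CPM and both genes of each pair. Of other lists, up to 3 called genes were named, and 1 gene of these lists is not reported here. Groups share replicate numbers in the titles. Deviations from the group means correlated at 0.220, 0.199, 0.289 and 0.229 between same-numbered libraries. With the other library of the same set they correlated at 0.157 to 0.254. For WT replicates 2 and 4 that other library correlated more (0.207 and 0.232), so pairing by number was not told apart from the library set. The numbers were used as pairs only in the replicate block and the same-numbered comparisons of gene pairs. The main fit did not use them. Between libraries of a group the chi-square per degree of freedom was at least 41.2, so none was taken as a repeat of another.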

Additional observations from a re-analysis of the deposited data

Results flagged for a closer look

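In 2 of the 108 groups of 4 libraries examined, 1 library lay far from the other 3, while chance gives about 1 in 20 groups, or 5.4 here. Kars in WT was at 108 CPM in replicate 1 and at 114 to 115 CPM in the other 3. Yars in ATF4OE was at 132 CPM in replicate 2 and at 153 to 156 CPM in the other 3, and this lowest value was still above every WT library.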

How the results depend on the processing

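The call of each of the 13 cytosolic genes and Xpot held in all 21 alternatives. The same 10 pairs separated in each alternative run for the pairs. Hars was added by same-numbered differences and without ATF4OE replicate 1, Hars and Lars within replicates 3 and 4 and without the 4 libraries with few low counts. Farsa was lower in the last 2 and without WT replicate 1. Depth limited none of the members, while Lars2 varied widely between libraries, also within replicates 1 and 2. Of all genes tested, 1524 were higher and 813 lower. Lower genes numbered 385 by library size alone, which shifted the median of all genes by 0.13 (log2) and the share of higher calls from 65.2% to 83.5%. They numbered 528 within replicates 1 and 2 and 333 without the 4 libraries with few low counts (79.0% higher). Within replicates 3 and 4 there were 2434 higher and 1365 lower. DESeq2 called 2129 higher and 1090 lower. Leaving out 1 library gave 1089 to 1431 higher and 518 to 677 lower (518 without ATF4OE replicate 4).

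The replicate block gave 2279 genes higher and 2237 lower (50.5% higher), and the library set as block gave 2327 and 1927 (54.7% higher). Genes called lower under the replicate block numbered 1 cytosolic (Qars), 5 mitochondrial, 1 scaffold (Aimp2) and 13 of the other tRNA lists, with 1 of the latter higher. With the library set as block these were 1, 5, 1 and 10. The replicate block changed no other call of a member.

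Mitochondrial genes called lower (1) were 0 with upper-quartile factors, library size alone, no low-count filter and without the 4 libraries, 2 within replicates 1 and 2, 3 by DESeq2 and 0 to 1 leaving out a library. Of the other tRNA genes, 1 was lower by library size alone, 4 by DESeq2, 0 without the 4 libraries and 1 to 2 leaving out a library, and 2 were higher within replicates 3 and 4. The causes of these changes were not tested.

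Reversals of sign were among members that were not called. By library size alone log2 fold changes were 0.078 for Farsb, 0.089 for Aars2, 0.019 for Hars2, 0.083 for Yars2, 0.13 for Aimp1 and 0.043 for Eef1e1. Aimp1 was at 0.012 with RLE factors, 0.033 with upper-quartile factors, 0.011 with a filter of 1 CPM in 4 libraries and 0.012 by DESeq2. Within replicates 1 and 2 Kars was at -0.025 and Rars2 at -0.060. Within replicates 3 and 4 Farsb was at 0.024, Aars2 at 0.081, Lars2 at -0.48, Yars2 at 0.080 and Aimp1 at 0.059. Without the 4 libraries Farsb was at 0.14, Lars2 at -0.46, Nars2 at 0.12, Sars2 at -0.13, Yars2 at 0.035, Aimp1 at 0.013 and Eef1e1 at 0.035. Leaving out 1 library gave -0.014 to 0.069 for Farsa, -0.068 to 0.10 for Rars2, -0.036 to 0.030 for Aimp1, -0.086 to 0.021 for Aars2, -0.13 to 0.032 for Farsb and -0.11 to 0.018 for Yars2.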
